A study of Arabidopsis thaliana with 6 samples.

Results

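The genes described here serve iron acquisition and its control in roots of Arabidopsis thaliana, and they were chosen by identifier as 10 loci: IRT1, FRO2, OPT3, bHLH38, bHLH39, bHLH100, bHLH101, NAS1, NAS2 and NAS4. The authors' deposited table compares hb13 mutant with wild-type roots over 708 entries, and 7 of the 10 loci were listed in it. The 3 loci with no entry were bHLH38, bHLH100 and bHLH101. The 10 loci were picked with the earlier results of this table in view, so their direction is a description and not independent evidence.

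The samples were 3 hb13 mutant libraries and 3 wild-type libraries, all of the Col-0 ecotype, from roots of seedlings taken 5 days after germination on standard medium. The mutant is described in the labels as hb13 with no allele named, and HB13 encodes a homeodomain-leucine zipper (HD-ZIP) class I transcription factor. The labels call the tissue whole root, and their protocols place the cut about 0.5 cm from the root tip. The table gives 1 expression value per gene and genotype on a scale that is not stated, with no value per library, so no spread between replicates can be given and each call rests on the authors' q-value, which reached 0.05 at most. The q-value is an adjusted p-value, and the log2 ratio used below is the authors' log2 fold change, hb13 over wild type. Read depth is unknown, HB13 itself had no entry against which the genotype labels could be checked, and the values of single libraries were not analysed here.

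Arabidopsis takes up iron by reduction. Roots release protons and coumarins that bring ferric iron into solution, FRO2 reduces it at the root surface, and IRT1 carries the ferrous ion into the epidermis. The transcription factor FIT, paired with a bHLH protein of subgroup Ib (bHLH38, bHLH39, bHLH100 or bHLH101), switches these genes on when iron is short. Inside the plant, nicotianamine, a metal chelator made by the NAS enzymes, keeps iron soluble, and OPT3 loads iron into the phloem. Transcripts of the uptake genes are therefore widely used as readouts of the iron deficiency response of roots.

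All 7 listed loci were lower in hb13 roots. Their levels in hb13 were between 21.2% and 58.0% of the wild-type level, from the 2 genotype values in the authors' deposited table. The median log2 ratio of the 7 was -0.93 in the authors' deposited table, beside -0.76 for all lower entries of the table that have a fold change. Of all entries, 44.4% were lower in hb13, and since the loci were chosen with this comparison known, nothing is read from 7 of 7 against that share. Of the annotated nuclear protein-coding loci, 2.52% were listed in either direction, 1.14% as lower and 1.38% as higher. How many genes were tested is not given in the sources used here. Of the 7 iron genes, 5 had the smallest q-value of the table, a value shared by 48.3% of all entries. The same 5 were lower at a q-value under 0.01, beside 27.4% of all entries, and 2 were lower by at least 1 on the log2 scale, beside 11.4% of all entries.

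**Figure D1:**
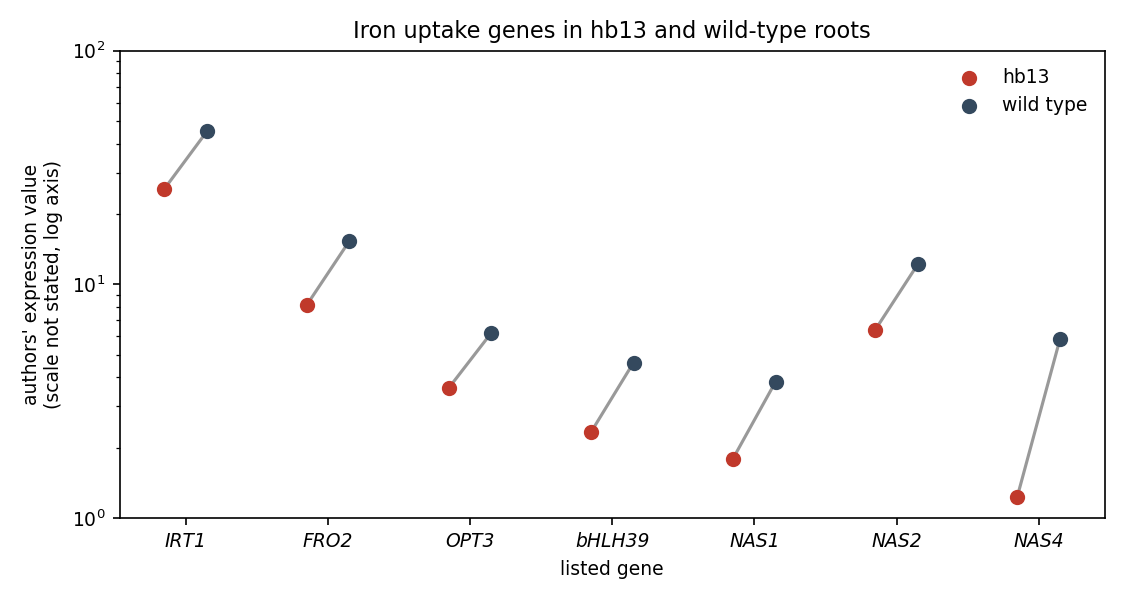
Expression value per genotype for the 7 listed iron genes, from the authors' deposited table, on a log axis with hb13 in red at the left and wild type in dark blue at the right of each pair. Each point is the authors' single value for a genotype, with no error available. Every hb13 point lies below its wild-type partner, and the steepest line is that of NAS4, at 1.23 in hb13 and 5.82 in the wild type.

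Transcripts of both genes of the uptake step were lower. IRT1 (AT4G19690), the ferrous iron transporter of the root epidermis, which also carries zinc, manganese and cobalt, had an expression value of 25.7 in hb13 roots and 45.3 in wild-type roots in the authors' deposited table. The authors' deposited table gave it a log2 ratio of -0.82 with a q-value of 0.00246, the smallest q-value in the table. FRO2 (AT1G01580), the ferric chelate reductase that supplies IRT1 with ferrous iron, had 8.14 in hb13 and 15.3 in the wild type in the authors' deposited table. Its log2 ratio was -0.91 with the same q = 0.00246 in the authors' deposited table. The decrease was of similar size for the reductase and the transporter transcripts, to 53.2% of wild type for FRO2 and 56.6% for IRT1 by the values of the authors' deposited table, and without replicate values the difference between them cannot be tested.

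The genes beside these in the genome had no entry. The protein-coding neighbours of IRT1 are IRT2, a close relative, and AT4G19700, and those of FRO2 are its relative FRO1 and AT1G01570. The neighbouring copies matter because similar genes can share reads. None of the 1267 exonic stretches of 100 bases in IRT1, the read length given in the labels, and none of the 2058 in FRO2 was found elsewhere in the reference genome. That search covered exact matches within single exons, so reads with mismatches or across exon junctions were not examined. No annotated gene overlapped either locus.

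OPT3 (AT4G16370), the transporter that loads iron into the phloem and takes part in signalling iron status from shoot to root, had 3.60 in hb13 and 6.203 in the wild type in the authors' deposited table. With a log2 ratio of -0.79 and a q = 0.00246 in the authors' deposited table, it had the smallest decrease of the 7. This pre-chosen gene was also the single listed member of the 9-gene OPT family, beside 2.52% of protein-coding loci listed.

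Transcripts of 3 of the 4 nicotianamine synthase genes were lower, beside 1.14% of protein-coding loci listed as lower. All 3 were pre-chosen, so nothing about the family is read from this count. NAS4 (AT1G56430) had 1.23 in hb13 and 5.82 in the wild type in the authors' deposited table, which leaves 21.2% of the wild-type level. The log2 ratio of NAS4 was -2.24 with a q = 0.00246 in the authors' deposited table, rank 7 by size among the 312 lower entries that have a fold change. NAS2 (AT5G56080) had 6.38 in hb13 and 12.2 in the wild type in the authors' deposited table, with a log2 ratio of -0.93 and a q-value of 0.00246. The decrease of NAS2 was close in size to that of FRO2. NAS1 (AT5G04950) had 1.79 in hb13 and 3.83 in the wild type in the authors' deposited table, with a log2 ratio of -1.10 and a q-value of 0.0392. NAS3 had no entry. Each of the listed NAS genes is a single exon in the annotation, and the longest identical stretch between any 2 of them was 49 bases, shared by NAS1 and NAS2, so reads of 100 bases could not match 2 of these genes without a mismatch.

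The log2 ratios of the 7 genes in the authors' deposited table spanned 1.45, and without NAS4 the other 6 lay within 0.31 of each other. Their median without NAS4 was -0.92 in the authors' deposited table. Ordered from the largest decrease to the smallest by the authors' deposited table, the genes were NAS4, NAS1, bHLH39, NAS2, FRO2, IRT1 and OPT3. NAS4 lay 1.14 below NAS1, its nearest neighbour in that order on the log2 scale of the authors' deposited table, but no replicate spread is at hand against which to set that gap. The order among the other 6 is likewise without error, and it changed when a pseudocount of 1 was added to each value. NAS1 then had -0.79 and bHLH39 -0.76, smaller decreases than that of NAS2 at -0.84. NAS4 stayed the largest at -1.61 and OPT3 the smallest at -0.65.

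**Figure D2:**
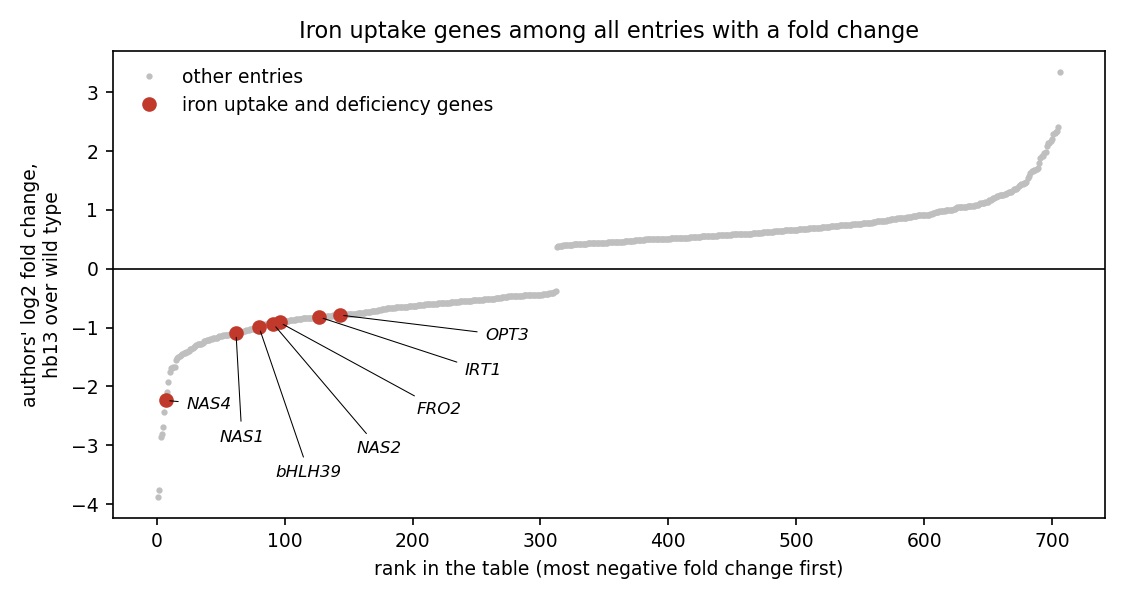
The authors' log2 fold change, hb13 over wild type, of every table entry that has one, against its rank from the most negative. The iron genes are the red points, and 6 of them sit together between -1.10 and -0.79 while NAS4 sits apart at -2.24.

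Among the subgroup Ib bHLH factors that pair with FIT, bHLH39 (AT3G56980) was the single one with an entry. It had 2.32 in hb13 and 4.62 in the wild type in the authors' deposited table, a level of 50.3% of wild type. Its log2 ratio was -0.99 with a q = 0.0477 in the authors' deposited table, close to the table's largest q-value of 0.05. bHLH38 lies 1144 bases from bHLH39 on the same strand as a tandem copy. The pair share at most 34 identical exonic bases in a row, so their reads can be told apart by sequence. bHLH38 overlaps the opposite-strand gene AT3G56960 over 386 bases and bHLH101 overlaps AT5G04140 over 79 bases, both in the annotation, and how reads there were assigned is not stated. The lack of an entry for bHLH38, bHLH100 and bHLH101 does not show that their levels were alike in the genotypes, since the table lists only entries up to its q-value limit.

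The 250 bases before the annotated start were read for the 10 loci from the RefSeq assembly TAIR10.1. Shown are the tandem pair with 1 listed and 1 unlisted copy, then OPT3 and NAS4, the listed genes with the smallest and the largest decrease. Capitals mark the E-box CANNTG, the core that bHLH proteins bind, of which the G-box CACGTG is a special case. Each sequence is given 5′ to 3′ on the strand of its gene and ends at the base before the gene start.
bHLH39 (chr3:21087711-21087960, minus strand): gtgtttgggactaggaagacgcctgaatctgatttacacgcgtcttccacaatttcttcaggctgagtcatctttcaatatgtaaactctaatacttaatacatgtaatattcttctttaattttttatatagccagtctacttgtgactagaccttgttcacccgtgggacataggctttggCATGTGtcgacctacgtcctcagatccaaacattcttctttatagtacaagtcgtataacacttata
bHLH38 (chr3:21085246-21085495, minus strand): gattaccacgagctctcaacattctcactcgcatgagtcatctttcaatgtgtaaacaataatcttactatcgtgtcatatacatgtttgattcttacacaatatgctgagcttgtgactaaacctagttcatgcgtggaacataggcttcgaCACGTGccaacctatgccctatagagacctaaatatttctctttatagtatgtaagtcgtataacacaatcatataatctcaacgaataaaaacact
OPT3 (chr4:9250344-9250593, minus strand): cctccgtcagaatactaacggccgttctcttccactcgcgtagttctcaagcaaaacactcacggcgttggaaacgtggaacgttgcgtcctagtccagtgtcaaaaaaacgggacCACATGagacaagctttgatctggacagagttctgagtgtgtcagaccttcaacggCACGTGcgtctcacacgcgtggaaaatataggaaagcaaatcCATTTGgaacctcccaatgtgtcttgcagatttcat
NAS4 (chr1:21136585-21136834, plus strand): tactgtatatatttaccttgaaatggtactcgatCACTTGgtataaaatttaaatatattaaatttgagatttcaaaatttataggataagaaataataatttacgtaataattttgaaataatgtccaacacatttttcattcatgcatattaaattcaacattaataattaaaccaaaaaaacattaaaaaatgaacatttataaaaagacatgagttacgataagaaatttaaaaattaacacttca

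The sequences of the tandem pair differ at the E-box. bHLH39, the listed copy, holds CATGTG with its first base 67 bases before the gene start, whereas bHLH38 holds the G-box CACGTG 97 bases before its start. OPT3 holds 3 E-boxes, at 134, 78 and 36 bases before its start, of which the one at 78 is a G-box. NAS4 has 1, CACTTG, at 216 bases. Over all 10 loci the G-box was found in 3 windows, those of OPT3, bHLH38 and bHLH100, and in 1 of the 7 listed genes. The same letters were found in 6.49% of the 27443 protein-coding windows of this length. The E-box was found before 6 of the 10 loci and 4 of the 7 listed ones, beside 55.3% of all windows. The pattern CAATNATTG, searched for HD-ZIP class I sites with any middle base, was found in none of the 10 windows. It was found in 0.918% of all windows, a share that need not be of class I sites alone. The absence says only that these letters are not in these stretches. All 3 motifs read the same on both strands and every G-box is also counted as an E-box.

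**Figure D3:**
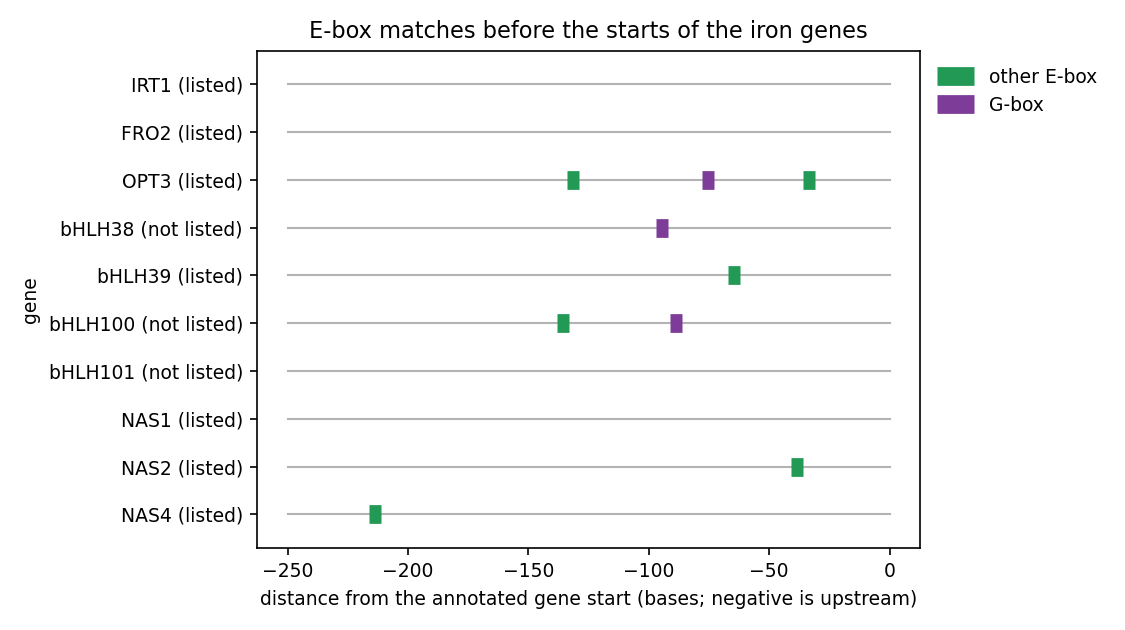
Positions of E-box matches in the 250 bases before the annotated start of each of the 10 loci, with the distance from the gene start in bases on the horizontal axis and G-boxes in purple. Both G-boxes of the bHLH genes lie between 86 and 97 bases upstream, and IRT1, FRO2, bHLH101 and NAS1 have no match in this window.

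The wider iron deficiency response was represented by 58 further genes on 4 lists, of which 5 were listed, 3 lower and 2 higher in hb13. Over all protein-coding loci the shares were 2.52% listed, 1.14% lower and 1.38% higher. Of 7 genes for bringing iron into solution, 1 was listed. This was CYP82C4 (AT4G31940), a cytochrome P450 that makes the catechol coumarin sideretin, with 0.310 in hb13 and 1.67 in the wild type in the authors' deposited table. Its log2 ratio was -2.43 with a q = 0.0244 in the authors' deposited table, larger in size than that of any of the 7 genes above. Both of its values were low, with a mean under 1, and the pseudocount was not applied to it. Little therefore rests on its place ahead of the 7. The proton pump AHA2, the coumarin enzyme F6'H1 and the exporter ABCG37 had no entry.

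Of 10 other transcripts reported to follow iron deficiency, 2 were listed, beside 2.52% of protein-coding loci listed and 1.14% listed as lower. The RefSeq annotation gives these 2 uncharacterised proteins as each other's closest match in Arabidopsis. AT5G05250 had 1.49 in hb13 and 2.98 in the wild type in the authors' deposited table, with a log2 ratio of -1.001 and a q-value of 0.0491. AT3G56360 had 43.0 in hb13 and 59.3 in the wild type in the authors' deposited table, with a log2 ratio of -0.46 and a q-value of 0.0127. Both were thus lower, the first by more than the second. None of the 20 further transport genes was listed, among them IRT2, FRO3, NRAMP1, the citrate exporter FRD3 and the vacuolar transporter IREG2. For a list of 20 genes, a listed share of 2.52% is itself low.

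Among 21 regulators 2 were listed, beside 2.52% of protein-coding loci listed and 1.38% listed as higher. Both were higher in hb13, as were 55.6% of all entries. NAI1 (AT2G22770, also bHLH20), known for controlling the endoplasmic reticulum bodies and for promoting the breakdown of the FIT protein, had 56.4 in hb13 and 32.9 in the wild type in the authors' deposited table. The log2 ratio of NAI1 was 0.78 with a q = 0.00246 in the authors' deposited table. AT2G22750 (also bHLH18) is a bHLH gene close to NAI1 on chromosome 2. It had 6.12 in hb13 and 1.61 in the wild type in the authors' deposited table. Its log2 ratio was 1.92 with a q = 0.00246 in the authors' deposited table. FIT itself, the repressor PYE, the E3 ligase BTS, ILR3 and the MYB factors MYB10 and MYB72 had no entry.

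Iron storage genes, some of which as background rise when iron is in excess, gave no entry. None of the 4 ferritins FER1 to FER4, of VIT1 or of 5 VIT-like genes was listed in either direction. For a list of 10 genes, the share of protein-coding loci listed in the table, 2.52%, is itself low.

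**Figure D4:**
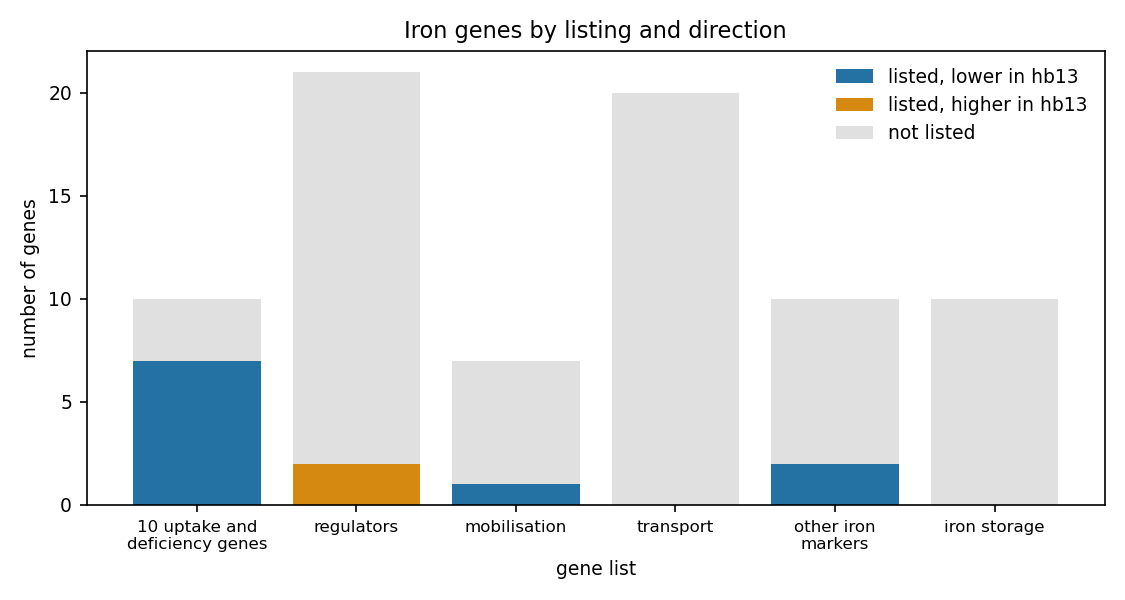
Number of genes on each iron list that were listed as lower in hb13 (blue), listed as higher in hb13 (orange) or not listed (grey). The 10 loci chosen for this description have 7 lower entries, and the lists of transport and iron storage genes have none.

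A few relatives of IRT1 and FRO2 were listed as higher, while most, IRT2 and FRO1 included, had no entry. In the ZIP family of 15 genes, 3 were listed, the pre-chosen IRT1 as lower and ZIP2 and ZIP5 as higher, beside 2.52% of protein-coding loci listed and 55.6% of entries higher. ZIP5 (AT1G05300), annotated as a zinc transporter, had 24.2 in hb13 and 15.6 in the wild type in the authors' deposited table, with a log2 ratio of 0.63 and a q-value of 0.00246. ZIP2 (AT5G59520), a metal transporter regulated by copper, had 213 in hb13 and 163 in the wild type in the authors' deposited table, with a log2 ratio of 0.38 and a q-value of 0.0491. In the FRO family of 8, 3 were listed, with the pre-chosen FRO2 lower while FRO4 and FRO5, reductases induced when copper is short, were higher, at log2 ratios of 0.99 and 0.68 in the authors' deposited table. FRO4 and FRO5 belong to a set of 5 copper deficiency genes, with COPT2, FSD1 and MIR408, that were all listed and all higher, with a median log2 ratio of 1.13 in the authors' deposited table. That set was picked with this table in view, so its common direction was fixed by the choice. Beside it, 1.38% of protein-coding loci were listed as higher, a share that leaves out microRNA genes such as MIR408.

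**Figure D5:**
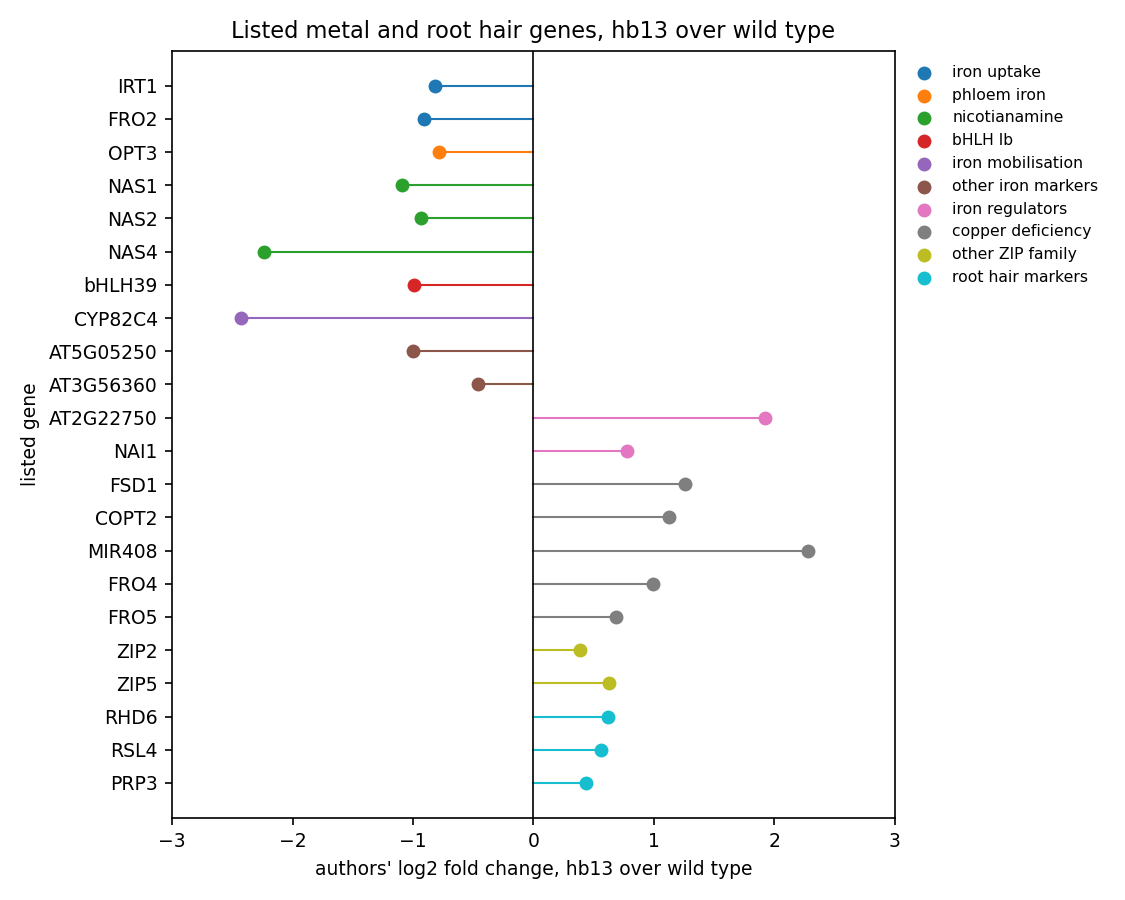
The authors' log2 fold change, hb13 over wild type, of each listed iron, copper, ZIP family and root hair gene, coloured by list. The iron uptake, phloem, nicotianamine and mobilisation genes, the other iron markers and the transcription factor bHLH39 lie left of 0, and the regulators NAI1 and AT2G22750, the copper deficiency genes, ZIP2, ZIP5 and root hair markers lie right of it, from 0.38 for ZIP2 to 2.28 for MIR408.

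Cell type markers were examined beside these changes, because IRT1 and FRO2 act in the root epidermis and OPT3 in the phloem. In RNA from mixed root cells, fewer cells of a type and less RNA per cell cannot be told apart. Of 6 root hair markers, 3 were listed and all 3 were higher in hb13, beside 2.52% of protein-coding loci listed and 55.6% of entries higher. RHD6, a regulator of root hair initiation, had 36.0 in hb13 and 23.4 in the wild type in the authors' deposited table. RSL4, a regulator of hair growth, had 102 in hb13 and 68.7 in the wild type in the authors' deposited table. PRP3, a wall protein of root hairs, had 1609 in hb13 and 1191 in the wild type in the authors' deposited table. EXPA7, EXPA18 and COBL9 had no entry. No entry was found for the 2 non-hair epidermis markers, the 3 ground tissue markers, the 4 stele markers or the 7 shoot markers, so the root label could not be checked on them and no marker was listed at 0. The part of the hair markers in the iron gene results was not tested.

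By the size of the change alone, the entries most like IRT1 were GLYI4, AT4G32480 and ROPGEF11. Their log2 ratios in the authors' deposited table were -0.82 each, as for IRT1. GLYI4, a glyoxalase I family gene, had 8.90 in hb13 and 15.7 in the wild type in the authors' deposited table, and ROPGEF11, an activator of Rop GTPases, had 41.1 in hb13 and 72.4 in the wild type. AT4G32480 had 27.0 in hb13 and 47.6 in the wild type in the authors' deposited table. With 2 values per gene the likeness is in 1 ratio only.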

How the data were processed

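RNA was taken from roots of 3 hb13 and 3 wild-type samples, grouped by their titles. Per the labels' protocols, directional libraries from polyadenylated RNA were sequenced as single-end reads of 100 bases. The submitters' processing notes name TopHat2 2.0.13, Cufflinks 2.1.1, Cuffdiff and TAIR10 without their roles. Per the file headers, the deposited table holds 1 expression signal per genotype, a log2 fold change and q-value columns. The scale of the signal is not named, so it is compared only within a gene. The deposited log2 column was checked against the log2 of hb13 over wild type and differed by at most 1.02e-05 where it holds a number. The q-value deposited by the authors is used as the call, and the test and adjustment behind it are not given in the sources used here.

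No new test was made, because the planned fits need values per library and the table has none. The members and lists were chosen with earlier results of these data known. Genes named with values are the 10 loci, every listed gene of the other lists, listed neighbours of listed loci, and the 3 single-locus entries nearest to IRT1 in log2 fold change. Some list genes and neighbours with no entry are named as such, chosen as familiar examples outside that rule. All 128 list genes matched RefSeq TAIR10.1 by locus tag. The table holds no coordinates, and those printed are of TAIR10.1, whose nuclear chromosomes are those of TAIR10. Motif search was tested on simulated sequences. Alternatives were a stricter q-value, a minimum fold change, minimum values and a pseudocount. Depth per sample is unknown, so no interval is given. Python 3.11.15, pandas 2.3.3, NumPy 2.4.6 and matplotlib 3.10.9 were used.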

Additional observations from a re-analysis of the deposited data

How the results depend on the processing

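No paired analysis was possible because single libraries have no values here. Leaving out each replicate was not run for the same reason. Of the 7 lower iron genes, 5 had a q-value under 0.01 (lower entries at that limit make up 27.4% of the table), and NAS1 and bHLH39 did not. With a change of 1 or more on the log2 scale the count was 2, NAS1 and NAS4 (11.4% of the table is lower at that limit). With mean values from 5 upward the count was 3, while 566 of all 708 entries, in either direction, had such a mean. Most of the 7 thus lay under a mean that most entries reached. Of the 3 lower genes among the other iron lists, 0 passed a q-value of 0.01 and 1 passed the minimum mean of 5. These limits can only remove entries. With a pseudocount of 1, the 7 genes kept their direction but not their order, at log2 fold changes from -1.61 to -0.65. A minimum mean of 1 removed CYP82C4 and none of the 7. No listed direction would turn under a common rescaling of 1 genotype by less than 0.37 on the log2 scale. The count of iron storage genes was 0 under every limit tried. The unknown depth bears most on low values, such as those of NAS4 and CYP82C4 in hb13.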
